A study of Mus musculus with 8 samples.

Results

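A set of 9 neuropeptide genes, grouped as induced by injury, was followed in mouse dorsal root ganglia after ligation of a spinal nerve: Gal, Npy, Vip, Nts, Adcyap1, Crh, Ucn2, Nmb and Cck. They were taken by name from a table of read counts for 53801 genes, and all 9 were found in it. Of these, 7 had enough reads to be tested, among 16244 genes that passed the filter on low counts. Among the 7, 6 rose on the injured side (Gal, Npy, Nts, Adcyap1, Crh and Ucn2) and 1, Nmb, fell. Over all genes tested 10.1% rose and 8.02% fell in the same fit (edgeR quasi-likelihood test, adjusted p under 0.05). Crh and Ucn2 passed the filter only with the reads of their injured libraries counted. The count of 6 among the 7 thus depends in part on the filter, which tends to leave out scarce genes that did not rise. Vip and Cck did not pass the filter, with 16 and 59 reads over all 8 libraries together. For these 2 genes no rise over the contralateral side was detected. Rises above 2.80-fold (Vip) and 2.48-fold (Cck) lay outside the 95% intervals of the reads summed over the days, which cover counting error only. These intervals do not bound a rise at a single day. Smaller rises were not detectable at this depth. Nmb went against the name of the set.

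Each library held RNA of ganglia L3, L4 and L5 from 3 pooled mice, which the labels describe as male C57BL/6J animals. The left L4 spinal nerve was tied tightly, and ganglia of the injured left side and of the uninjured right side (contralateral) were taken at days 1, 3 and 7, giving 1 library for each side and day. Another pool, labelled no injury, was sampled on its left and right side, and the sources used here do not say whether those mice had sham surgery. An injured-side library thus mixes the ganglion of the tied nerve with 2 neighbours, so its values average over tied and untied ganglia. The replicates of the injury are the 3 operated pools, which also differ in day. The ganglia are bulk tissue, in which more peptide-expressing cells and more RNA per cell cannot be told apart.

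Neuropeptides are cut from larger precursors by proteases, packed into dense-core vesicles and released to act on G protein-coupled receptors. In an intact sensory ganglion galanin, neuropeptide Y and VIP are known to be scarce, while substance P and CGRP dominate. Cutting the peripheral axon is known to shift sensory neurons to galanin, neuropeptide Y and PACAP, and in the rat also to VIP. The cyclic AMP response element (CRE) and the AP-1 element are DNA sites known to bind CREB, ATF and Jun factors.

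Library totals ranged from 20488115 to 21652688 reads, and 3 reads, the most that a count of 0 allows, equalled 0.139 to 0.150 CPM (counts scaled to the library total). These limits cover counting error only. The injury marker Atf3 stood at 474, 618 and 613 CPM in the injured libraries of days 1, 3 and 7, above the contralateral 126, 169 and 110 CPM and the 10.8 and 11 CPM without injury. The libraries labelled no injury went against the labelled sex. The female-specific transcript Xist had 4931 and 4129 reads in them and 0 to 3 reads in operated libraries. Kdm5d, on the Y chromosome, had no read in them and 13.2 to 16.6 CPM elsewhere. Sex and operation therefore cannot be told apart wherever operated pools are set against that pool. The contralateral library of day 1 held 520 CPM of the 10 marrow and neutrophil markers, against 22.7 to 271 CPM in the 7 others. Skeletal muscle markers summed to 269 and 1350 CPM in the libraries without injury and to 90.3 to 207 CPM in operated ones, and 2 of 10 (Myh1 and Myh2) were called lower on the contralateral side than without injury. Their part in the comparisons with that pool was not tested. The 14 sensory neuron markers found in the table, each at 65.7 CPM or more in every library, summed to 15200 to 16800 CPM on the injured side, 17500 to 18300 on the contralateral side and 16800 to 17500 without injury. Of these 14, 6 fell on the injured side and 0 rose, with a median log2 fold change of -0.31, and their part in the peptide results was not tested.

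Gal (ENSMUSG00000024907, chr19:3409915-3414544, minus strand, GRCm38) encodes galanin, which had the highest level per kilobase of the 9 genes on the injured side at day 7. It stood at 8.28 and 10.3 CPM in the left and right library without injury. At days 1, 3 and 7 it reached 22.1, 135 and 83.1 CPM on the contralateral side, and 47.4, 457 and 532 CPM on the injured side. Each injured library was above its own contralateral one, but the injured library of day 1 lay below the contralateral ones of days 3 and 7. The side ratio was 2.14-fold, 3.39-fold and 6.4-fold at the 3 days, and the log2 ratio of left to right was -0.31 without injury. In the fit that compares sides within pools Gal rose by 1.89 ± 0.32 (log2 fold change ± SE, 3 operated pools; adjusted p = 0.0258), and its call was lost without the day 3 pool (adjusted p = 0.198). In a fit that did not pair the sides (no replicate block), Adcyap1 and Ucn2 were the only 2 of the 7 genes still called (adjusted p = 0.132 for Gal).

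Npy (ENSMUSG00000029819, chr6:49822710-49829507, plus strand) encodes neuropeptide Y, a peptide that sympathetic neurons also make. It had 0 reads in the left library without injury and 18 reads (0.834 CPM) in the right one. The contralateral libraries held 0.893, 14.2 and 18.3 CPM and the injured ones 1.30, 49.7 and 126 CPM at days 1, 3 and 7. At day 1 the level was 3.06 times that without injury on the injured side (26 against 18 reads; exact 95% interval 1.61 to 5.93, counting error only) and 2.11 times on the contralateral side (19 reads; 1.05 to 4.26). The levels of days 3 and 7 were far above both. These intervals leave out the difference between the left and right library without injury. Npy rose by 2.17 ± 0.47 (adjusted p = 0.0470), just under the threshold, and the call was lost when any 1 of the 3 pools was left out (adjusted p from 0.101 to 0.318).

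Nts (ENSMUSG00000019890, chr10:102481756-102490486, minus strand) encodes neurotensin, a peptide known to modulate pain. Its level was 7.23 and 7.69 CPM without injury, 10.9, 40.9 and 38.2 CPM on the contralateral side and 17.4, 119 and 134 CPM on the injured side, in the order of days. As for Gal, the injured library of day 1 lay below the contralateral ones of days 3 and 7. Nts rose by 1.41 ± 0.21 (adjusted p = 0.0148), and the call was lost without the day 7 pool (adjusted p = 0.0600) and without the day 3 pool (0.117).

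Crh (ENSMUSG00000049796, chr3:19693401-19695396, minus strand) encodes corticotropin-releasing hormone, the hypothalamic start of the stress axis. It had 1 read in each library without injury. There were 6, 40 and 35 reads on the contralateral side and 13, 146 and 209 reads on the injured side, or 0.649, 6.78 and 9.82 CPM there. All 3 injured libraries were above both libraries without injury. The injured library of day 7 held 208 times the level of the libraries without injury (exact 95% interval 57.0 to 1730, counting error only, since just 2 reads set the base). Crh rose by 2.05 ± 0.27 against the uninjured side (adjusted p = 0.00396). Without the day 7 pool the value was 1.62 (adjusted p = 0.0561).

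Adcyap1 (ENSMUSG00000024256, chr17:93199017-93206537, plus strand) encodes PACAP, a peptide already present in intact ganglia. Its level was 96.9 and 89.0 CPM without injury, 159, 183 and 104 CPM on the contralateral side and 385, 462 and 275 CPM on the injured side. The groups did not overlap: the lowest injured library, that of day 7, was above the highest contralateral one, that of day 3. The side ratio barely differed between the pools, at 2.41-fold, 2.52-fold and 2.64-fold. Adcyap1 rose by 1.33 ± 0.06 (adjusted p = 0.000316) and kept its call without any 1 of the 3 pools.

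Ucn2 (ENSMUSG00000049699, chr9:108986010-108987164, plus strand), or urocortin 2, belongs to the peptide family of corticotropin-releasing hormone. It had 8 and 2 reads without injury, 14, 3 and 2 reads on the contralateral side and 75, 54 and 16 reads on the injured side. Its injured level was highest at day 1 (3.74 CPM) and lower at day 3 (2.51 CPM) and day 7 (0.752 CPM), the reverse of the order seen for Gal, Npy, Nts and Crh. All 3 injured libraries were nonetheless above all 3 contralateral ones. Ucn2 had the highest fitted fold change of all 16244 genes, 3.04 ± 0.47 (adjusted p = 0.00722), on a total of 174 reads, and it kept its call without any 1 of the 3 pools (adjusted p from 0.00196 to 0.0497). It passed the filter on low counts only with its injured libraries counted.

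Nmb (ENSMUSG00000025723, chr7:80902227-80905076, minus strand), the gene of neuromedin B, a bombesin-like peptide, moved the other way. It stood at 75 and 75.5 CPM without injury, 105, 82.4 and 79.8 CPM on the contralateral side and 96.2, 49.2 and 42.0 CPM on the injured side. At day 1 the injured library was above both libraries without injury, and the injured libraries of days 3 and 7 were below the 6 others. Nmb fell by 0.59 on the log2 scale (SE 0.15; adjusted p = 0.0463). The call was lost without the day 7 pool (adjusted p = 0.176), without the day 3 pool (0.231) and when only the operated pools were fitted (0.0866). The annotation has 163 bases of exon that Nmb shares with Sec11a on the same strand, and the sources used here do not say how reads there were counted.

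Vip and Cck stayed at the limit of detection. Vip (ENSMUSG00000019772, chr10:5639218-5647617, plus strand), the gene of vasoactive intestinal peptide, had 1 and 0 reads without injury, 7, 0 and 1 on the contralateral side and 2, 1 and 4 on the injured side. Its summed injured level was 0.888 times the contralateral one (7 against 8 reads; exact 95% interval 0.274 to 2.80, counting error only). Cck (ENSMUSG00000032532, chr9:121489824-121495694, minus strand), the cholecystokinin gene, had 10 and 6 reads without injury, 6, 3 and 10 on the contralateral side and 6, 6 and 12 on the injured side, with a ratio of 1.28 (0.673 to 2.48). No side difference of either gene was detected. For reads summed over the days, the upper bounds allow a rise over the contralateral side of at most 2.80-fold and 2.48-fold on counting error alone. Smaller rises were not detectable at this depth. A rise at a single day is not bounded by these values, and 7 contralateral Vip reads came from day 1. Against the libraries without injury, the day 7 injured level was 7.98 times for Vip (4 against 1 reads, exact 95% interval 0.79 to 393). For Cck it was 1.5 times (0.646 to 3.37). The fitted rises of the 6 genes that were called ran from 2.52-fold (Adcyap1) to 8.22-fold (Ucn2).

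**Figure D1:**
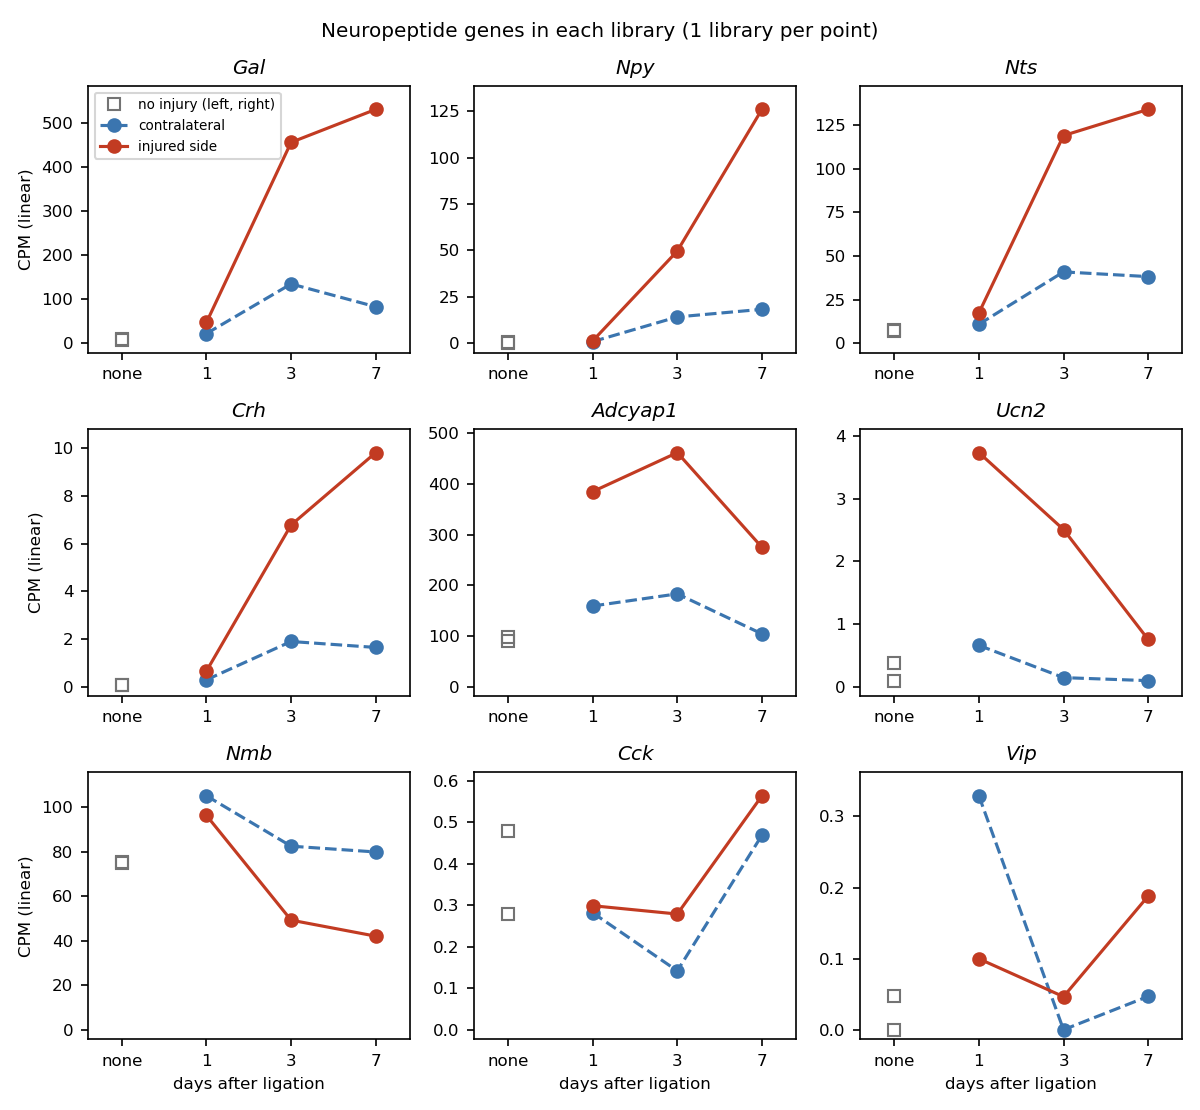
Level of each peptide gene in every library, in CPM on a linear scale that differs between panels, against days after ligation; squares are the left and right library labelled no injury, and lines join pools of different mice. Gal, Npy, Nts and Crh were highest on the injured side at day 7, Adcyap1 at day 3 and Ucn2 at day 1, while Nmb was lowest there at day 7.

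Of the 7 tested genes 2, Adcyap1 and Ucn2, had all injured libraries above all contralateral ones, which held for 15.3% of all genes tested. By day, 3 of the 7 (Gal, Adcyap1 and Ucn2) were at least 2-fold higher on the injured side at day 1, where 1.8% of genes were, and 6 of the 7 at day 3 (7.62% of genes) and at day 7 (3.77%). The median side ratio of the 7 was 0.98, 1.76 and 2.17 (log2) at days 1, 3 and 7, against 0.01, 0.02 and 0 over all genes. A ratio at a single day rests on 1 library a side and has no replicate check. Crh and Ucn2 count among the 7 only because their injured libraries brought them past the filter.

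**Figure D2:**
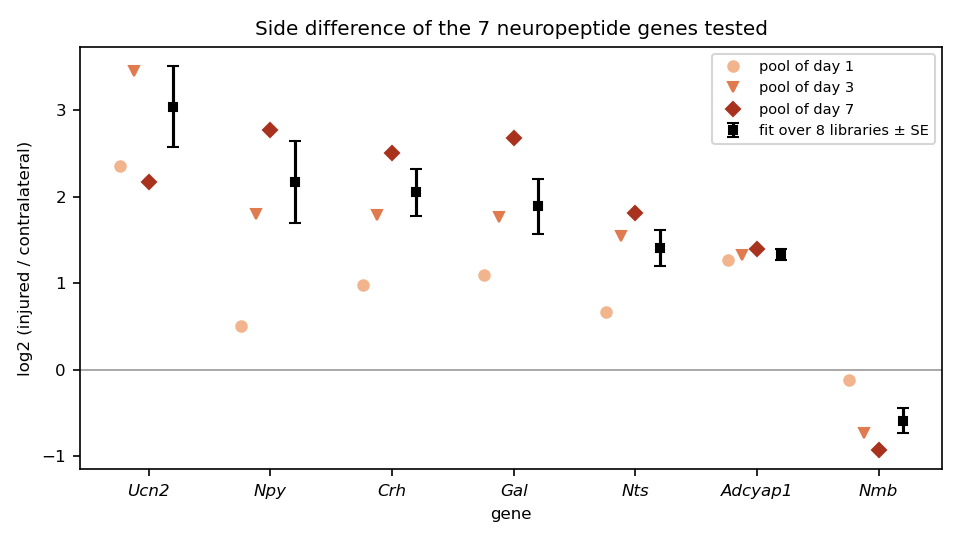
Log2 ratio of the injured to the contralateral side for the 7 peptide genes tested, 1 symbol for each pool, with the fitted injury effect and its SE as black squares. The pool values of Adcyap1 lie between 1.27 and 1.40, whereas those of Npy spread from 0.50 at day 1 to 2.77 at day 7.

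Whether the side difference moved with time was tested by a term for the log2 of the day. None of the 7 genes passed, nor did any gene of the table (0% higher and 0% lower by edgeR, with 596 and 703 at an unadjusted p under 0.05, and 34 and 10 called by DESeq2). At an unadjusted p under 0.05, 3 of the 7 passed (Gal, Nts and Nmb), and DESeq2 called 1, Gal. Gal had 0.56 ± 0.07 (log2 per doubling of days; adjusted p = 0.117). Nts had 0.40 ± 0.06 (adjusted p = 0.17) and Nmb -0.29 ± 0.05 (0.177). Npy had 0.80 ± 0.43 (adjusted p = 0.749), Crh 0.51 ± 0.22 (0.623), Ucn2 0.40 ± 0.46 (0.886) and Adcyap1 0.05 ± 0.05 (0.878). The value of Ucn2 turned to -0.94 without the day 1 pool.

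The genes Gal, Npy, Nts and Crh ran nearly in parallel over the 8 libraries. The log2 levels of Gal and Crh had a Pearson correlation of 0.997, Gal and Nts 0.992, Crh and Nts 0.993 and Gal and Npy 0.953, whereas Gal and Adcyap1 had 0.717 and Gal and Ucn2 0.343. Adcyap1 and Ucn2 had 0.869 with each other, and Gal and Nmb -0.692. Among 13722 protein-coding genes with a mean of at least 1 CPM, the 3 nearest to Gal were Gm5152 (0.998), Crh (0.997) and Dtna (0.995). Nearest to Crh were Gal (0.997), Nts (0.993) and Gm5152 (0.993), and to Nts Nostrin (0.995), Crh (0.993) and Gal (0.992). For Npy they were Fto (0.976), Dtna (0.971) and Cyp26a1 (0.97). Adcyap1 was nearest to Pex5 (0.996), Slc39a14 (0.992) and Ngdn (0.99), Ucn2 to Tirap (0.994), Ddx21 (0.988) and Ly6a (0.976), and Nmb to Oas1c (0.993), Dnajc8 (0.993) and Ckmt1 (0.988). For Vip (Pnpla7 0.938, Otulinl 0.925, Vrk1 0.922) and Cck (Rsrc2 0.983, Zfp280c 0.96, Zfp748 0.929) the values rest on the few reads above. These values describe 8 libraries that share pools and the same step from no injury to day 7, and no test was made of them.

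The stretch of DNA just before the start of each gene was read to see whether the genes that rose share a known element. RefSeq promoter entries (GRCm38.p6) matched 7 of the 9 genes, all but Crh and Ucn2. Printed 5′ to 3′ on the gene's own strand are the 250 bases before the listed start of 4 genes that rose and of Vip, which did not pass the filter on low counts. Capitals mark an AP-1 element (TGANTCA) or the core of the CRE (TGACG), on either strand.
Gal, chr19:3414545-3414794, minus strand: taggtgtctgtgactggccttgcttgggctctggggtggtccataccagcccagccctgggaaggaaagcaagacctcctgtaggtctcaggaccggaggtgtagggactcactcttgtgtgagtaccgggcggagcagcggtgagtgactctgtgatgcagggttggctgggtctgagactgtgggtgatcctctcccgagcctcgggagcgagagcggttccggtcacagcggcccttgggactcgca
Npy, chr6:49822460-49822709, plus strand: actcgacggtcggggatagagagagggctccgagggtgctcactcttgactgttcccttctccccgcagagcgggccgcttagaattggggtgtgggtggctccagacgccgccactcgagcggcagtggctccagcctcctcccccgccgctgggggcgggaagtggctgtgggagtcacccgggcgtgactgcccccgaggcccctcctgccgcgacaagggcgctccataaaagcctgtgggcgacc
Nts, chr10:102490419-102490668, minus strand: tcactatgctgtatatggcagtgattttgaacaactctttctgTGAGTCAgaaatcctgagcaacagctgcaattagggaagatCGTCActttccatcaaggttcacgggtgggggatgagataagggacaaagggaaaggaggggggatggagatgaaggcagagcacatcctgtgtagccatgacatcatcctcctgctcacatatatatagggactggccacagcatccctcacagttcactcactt
Adcyap1, chr17:93198767-93199016, plus strand: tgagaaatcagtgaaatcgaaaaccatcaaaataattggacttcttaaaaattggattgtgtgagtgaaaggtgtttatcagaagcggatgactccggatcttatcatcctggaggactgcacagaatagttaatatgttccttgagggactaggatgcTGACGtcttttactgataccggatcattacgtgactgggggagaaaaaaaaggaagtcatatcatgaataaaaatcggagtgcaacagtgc
Vip, chr10:5638968-5639217, plus strand: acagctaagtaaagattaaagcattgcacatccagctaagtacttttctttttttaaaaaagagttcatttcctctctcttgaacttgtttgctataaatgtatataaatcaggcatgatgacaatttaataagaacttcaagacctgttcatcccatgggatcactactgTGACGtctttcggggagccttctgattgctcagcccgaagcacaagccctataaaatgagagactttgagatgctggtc

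None of the 7 held a full CRE (TGACGTCA) or a STAT element (TTCNNNGAA), which 1.62% and 7.18% of 27025 promoters of the same length hold. An AP-1 element was found only in Nts among the 7, at positions -207 to -201 counted back from the start, and 6.87% of promoters hold one. The core of the CRE, a search added after the letters had been seen, was found in 4 of the 7 and in 17.9% of all promoters: in Nts at -166 to -162, in Adcyap1 at -91 to -87, in Vip at -79 to -75 and in Cck at -47 to -43. Of those 4 genes Nts and Adcyap1 rose, and Vip and Cck did not pass the filter on low counts. Gal and Npy, which rose, held neither element in this window. The RefSeq starts of Nts and Nmb lie inside the GENCODE genes. Adcyap1 has 2 listed starts, and counted from the other one the same core is at -242 to -238. A match is a run of letters and not a site shown to be bound.

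Levels of different genes were compared per kilobase of exon. Without injury the order was Nmb with 94.9 ± 0.456 CPM per kilobase (mean ± SD, 2 libraries of 1 pool), Adcyap1 with 24.6 ± 1.48, Gal with 11.8 ± 1.80 and Nts with 5.98 ± 0.262. Npy (0.737 ± 1.04), Cck (0.290 ± 0.109) and Ucn2 (0.206 ± 0.178) did not differ beyond their spread, and Crh (0.0357) and Vip (0.00704) came last. On the injured side at day 7 the order was Gal with 675 CPM per kilobase, Npy with 222, Nts with 107, Adcyap1 with 72.9, Nmb with 52.9, Crh with 7.44 and Ucn2 with 0.651. Cck (0.432) and Vip (0.0552) came last. Over the 3 injured pools the spread was wide: Gal was at 439 ± 331 (SD, n = 3), Npy at 104 ± 111, Adcyap1 at 99.0 ± 24.8, Nmb at 78.8 ± 37.1 and Nts at 72.2 ± 50.8. These pools differ in day, so the SD includes any change with day and cannot show that levels are alike. Npy was at 2.29, 87.8 and 222 CPM per kilobase at days 1, 3 and 7, and Nmb at 121, 62.1 and 52.9. Nmb went from the highest level of the 9 without injury to the fifth at day 7.

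The uninjured side of operated mice was also set against the pool without injury. All 3 contralateral libraries were above both libraries without injury for Gal, Npy, Nts, Adcyap1, Crh and Nmb, 6 of the 7 tested genes, against 18.3% of all genes. Of these, Crh is among the 7 only with its injured libraries counted in the filter. The contralateral level at day 3 was 14.5 times the mean without injury for Gal and 5.47 times for Nts. For Npy it was 33.5 times (exact 95% interval 20.9 to 57.4, counting error only) and for Crh 40.1 times (10.4 to 343). The base of Npy was 18 reads of the right library and 0 of the left, a difference outside that interval's scope. In the fit none of the 8 genes tested there was called, where 0.125% of 16747 genes were higher and 0.155% lower. Crh had a log2 value of 4.63 ± 1.47 (adjusted p = 0.45), Npy 4.71 ± 2.81 (0.808), Gal 3.11 ± 1.66 (0.783), Nts 2.01 ± 1.18 (0.803) and Adcyap1 0.68 ± 0.43 (0.807). At an unadjusted p under 0.05 only Crh passed, and DESeq2 called 0 of the 8. Without the day 1 pool, which left 2 contralateral libraries against 1 summed sample, Npy, Nts and Crh were called, and without the day 7 pool Adcyap1 was (adjusted p = 0.0492).

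Within a pool the contralateral level was set against the injured level. At day 1 it was 46.7% of it for Gal, 68.8% for Npy (19 and 26 reads), 43.5% for Crh and 62.6% for Nts, beside 26.5% for Atf3. At day 3 it was 29.4% for Gal, 28.6% for Npy, 27.9% for Crh and 34.4% for Nts, beside 27.3% for Atf3. At day 7 it was 15.6% for Gal, 14.6% for Npy, 16.7% for Crh and 28.4% for Nts, beside 17.9% for Atf3. Gal, Npy and Crh thus lay near Atf3 at days 3 and 7 but above it at day 1, and Nts lay above it at all 3 days. The level without injury was not subtracted from these shares. Its mean was 9.29 CPM for Gal and 7.46 CPM for Nts, beside 22.1 and 10.9 CPM on the contralateral side at day 1. For Atf3 it was 10.8 and 11 CPM beside 126 CPM. The part of that level in the distance from Atf3 was not tested. Adcyap1, whose level without injury is itself high, was at 41.4%, 39.7% and 37.9% at days 1, 3 and 7. Ucn2 had lower shares, 17.6%, 5.65% and 12.5%, and its contralateral level of days 3 and 7 (0.142 and 0.0937 CPM) lay between the 2 libraries without injury (0.383 and 0.0927 CPM). Nmb differed from these: its injured level was below that without injury at days 3 and 7, and its contralateral level did not. RNA made on the contralateral side and RNA that reached those libraries from the injured side cannot be told apart here, which bears on the contralateral levels and the side ratios alike.

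**Figure D3:**
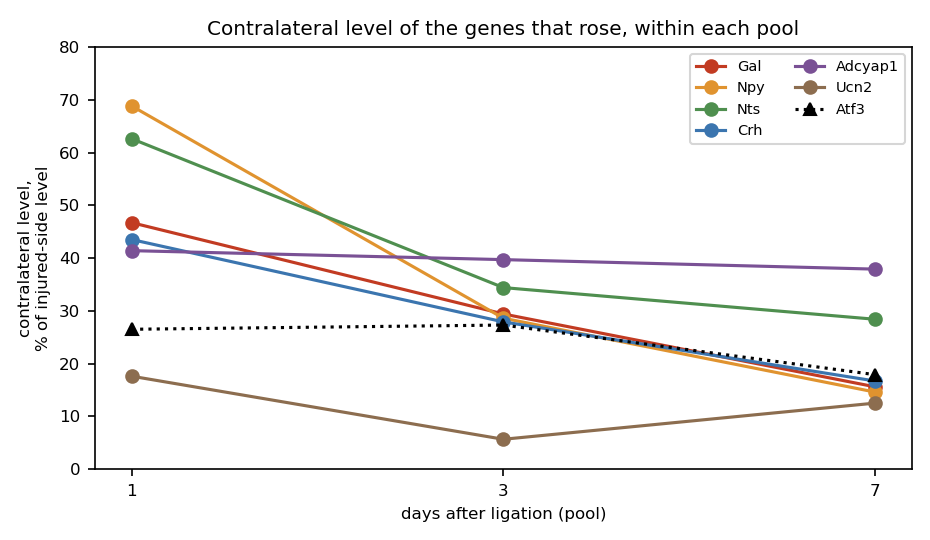
Contralateral CPM as a percent of the injured-side CPM in the same pool, for the 6 peptide genes that rose and for Atf3, at days 1, 3 and 7. Gal, Npy, Crh and Atf3 lie between 27.3% and 29.4% at day 3 and between 14.6% and 17.9% at day 7, and Npy at day 1 rests on 19 and 26 reads.

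The injured side of each day was also above the pool without injury for 6 of the 7 genes (all but Nmb) in all 3 libraries, which held for 24.9% of all genes tested. This count depends in part on the filter, since Crh and Ucn2 passed it only with their injured libraries counted. The injured level of Gal was 5.10, 49.2 and 57.3 times the mean without injury at days 1, 3 and 7, that of Nts 2.33, 15.9 and 18.0 times and that of Adcyap1 4.14, 4.97 and 2.96 times. For Npy the day 7 level was 297 times that without injury (exact 95% interval 187 to 502, counting error only). All 18 reads of that base came from the right library and 0 from the left, a difference that the interval leaves out. These ratios and those of the contralateral side share the same 2 control libraries.

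The receptors were taken from a list of 22 receptors and binding proteins of the 9 peptides, of which 15 were tested, 2 rose and 2 fell, beside 10.1% and 8.02% over all genes. Their median log2 fold change was -0.13 against 0.02 over all genes. Cckbr, the cholecystokinin B receptor, was at 0.287 and 0.0463 CPM without injury, 1.64, 6.52 and 7.78 CPM on the contralateral side and 4.89, 26.7 and 43.0 CPM on the injured side. The injured library was the highest at each day, while the ligand gene Cck had 0.142 to 0.564 CPM over all libraries and was not tested. Cckbr rose by 2.11 ± 0.21 (log2; adjusted p = 0.00284). Cckar, the other cholecystokinin receptor, was at 88 and 102 CPM in the injured libraries of days 3 and 7, against 52.9 and 43.9 CPM, with a value of 0.63 ± 0.26 that was not called (adjusted p = 0.165). Npy1r, the neuropeptide Y receptor Y1, rose by 0.71 ± 0.09 (adjusted p = 0.00407), at 81.8, 52.5 and 68.0 CPM on the injured side and 37.5 to 43.3 CPM in the 5 other libraries.

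Galr1, the inhibitory galanin receptor 1, fell by 1.1 on the log2 scale (SE 0.25; adjusted p = 0.0243). Its level was 1.5, 0.883 and 1.13 CPM on the injured side, below each of the 5 other libraries (2.34 to 2.97 CPM). Galr2 was not above 0.236 CPM in any library and Galr3 had no reads. Ntsr2, a neurotensin receptor, fell by 0.89 (SE 0.17; adjusted p = 0.0149), from 3.21 to 3.99 CPM in the 5 other libraries to between 1.86 and 2.07 CPM. Adcyap1r1, the PACAP receptor, had a value of -0.37 ± 0.15 and was not called (adjusted p = 0.123), and neither were the receptors Crhr1 (-0.13) and Crhr2 (-0.32).

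**Figure D4:**
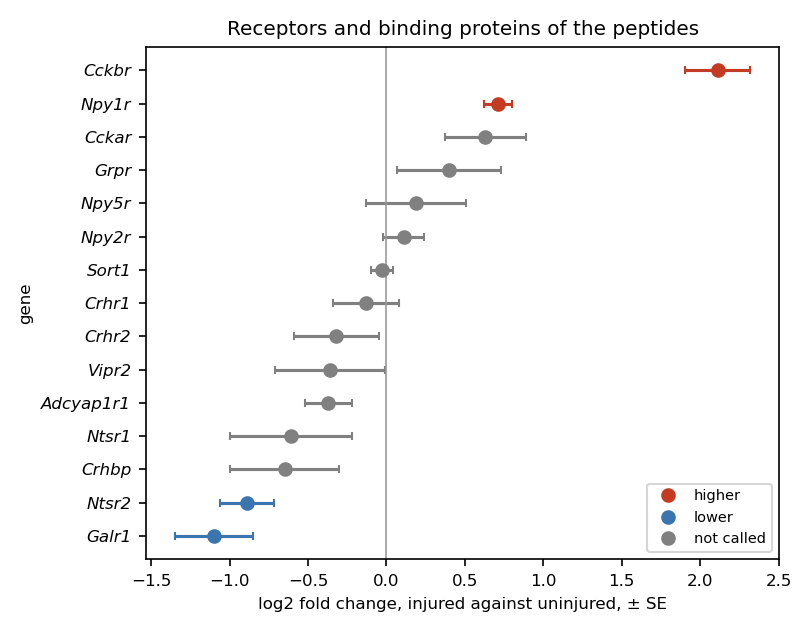
Log2 fold change of the injured against the contralateral side within pools, with its SE. The 15 receptors and binding proteins tested are coloured by the edgeR call. Cckbr (2.11) and Npy1r (0.71) are higher, Ntsr2 (-0.89) and Galr1 (-1.10) lower.

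Of 21 tested genes for making and storing peptides 2 rose and 2 fell, near the shares over all genes (10.1% and 8.02%), with a median of 0.01. Vgf, a nerve growth factor-inducible granin-like precursor, rose by 1.06 ± 0.17 (adjusted p = 0.0148), and Ptprn, a membrane protein of dense-core vesicles, by 0.30 ± 0.07 (0.0246). The granins Chga and Chgb fell by 0.54 (adjusted p = 0.0123) and 0.42 (0.0138). The convertase genes Pcsk1 (0.17) and Pcsk2 (-0.21), the carboxypeptidase gene Cpe (-0.22) and the amidating enzyme gene Pam (0.11) were not called. Among 13 peptidases, Nln (neurolysin, which cleaves neurotensin) rose by 0.49 ± 0.11 (adjusted p = 0.0205) and Anpep by 0.70 ± 0.20 (0.0477), and 0 fell, beside 10.1% and 8.02% over all genes. Ide, the insulin-degrading enzyme, stood at 192 CPM in both libraries without injury and at 82.0 to 109 CPM in all 6 operated ones on either side, and it was the 1 peptidase called lower on the contralateral side than without injury. For Ide, operation and any other difference between these pools of mice, sex included, cannot be told apart.

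Of 30 other peptide genes 16 were tested, and 6 of them rose: Penk, Grp, Adm2, Ucn, Pthlh and Bdnf, the last encoding a neurotrophin stored with peptides. None fell, and the median was 0.41, beside 10.1% higher and 8.02% lower and a median of 0.02 over all genes. Grp, Adm2 and Ucn passed the filter on low counts only with their injured libraries counted. Bdnf rose by 0.57 ± 0.09 (adjusted p = 0.0071) and Pthlh by 0.99 ± 0.18 (0.0136). Ucn, the urocortin gene and so a relative of Ucn2 and Crh, rose by 1.98 ± 0.39 (0.02) with at most 3.11 CPM, and Penk by 0.46 ± 0.10 (0.0219). The peptides that dominate intact ganglia were not called: Calca, which encodes CGRP, had -0.15 ± 0.11 (adjusted p = 0.347) and Tac1, which encodes substance P, -0.24 ± 0.26 (0.572). At day 1 Tac1 was at 337 CPM on the injured side against 236 CPM, and at day 7 at 147 against 203 CPM. Grp, which encodes gastrin-releasing peptide, the bombesin-like relative of Nmb, was at 0.0479 and 0.0463 CPM without injury and at 0.649, 3.3 and 3.29 CPM on the injured side. It rose by 1.79 ± 0.42 (adjusted p = 0.0262), opposite to Nmb.

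Sympathetic neurons also make neuropeptide Y and galanin, so their markers were read in the same libraries. Of 10 markers 4 were tested, and only Phox2a rose (2.66 ± 0.45; adjusted p = 0.0129), to 0.499, 1.81 and 1.88 CPM at days 1, 3 and 7 from at most 0.236 CPM in the 5 other libraries. Phox2a too passed the filter on low counts only with its injured libraries counted. Th had -0.69 ± 0.26 (adjusted p = 0.138), Ddc -0.66 ± 0.26 (0.117) and Slc18a2 0.05 ± 0.27 (0.912), none of them called. By day Th was at 89.3, 40.9 and 41.1 CPM on the injured side, against 90.3, 103 and 68.8 CPM on the contralateral side. Of the markers not tested, Dbh was at 0.0499, 0.279 and 0.94 CPM on the injured side by day (at most 0.234 elsewhere), Slc6a2 at 1.45, 0.279 and 0.376 CPM (at most 0.331 elsewhere) and Gata3 at 0.299, 0.372 and 0.658 CPM (at most 0.142 elsewhere). Hand2 was at 0 CPM in 7 of the 8 libraries. The part of sympathetic neurons in the peptide results was not tested. The summed level of the 10, of which Th, also known in a class of sensory neurons, made 40.9 to 103 CPM, was 45.5 to 93.2 CPM on the injured side, 71.8 to 107 on the contralateral side and 82.6 to 93.3 without injury. Of 10 macrophage markers 3 rose and 0 fell, and their sum was 93.1 to 393 CPM on the injured side, 110 to 192 on the contralateral side and 136 to 194 without injury. Of 10 fibroblast and meningeal markers 3 rose and 0 fell (median 0.56), with sums of 889 to 2250 CPM, 772 to 1270 and 1660 to 1800 in the same order. Of 10 satellite glia markers 3 rose and 0 fell (median 0.21), with sums of 3580 to 4260, 3430 to 3990 and 3890 to 3940 CPM. Over all genes 10.1% rose and 8.02% fell, and the part of these cells in the peptide results was not tested. The adipocyte markers, read because Nmb is also known to be expressed in fat, summed to 32.4 to 45.5 CPM on the injured side, 23.7 to 44.8 on the contralateral side and 19.7 to 22.8 without injury, with 1 of 7 higher and 0 lower; their part in the Nmb result was not tested.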

How the data were processed

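RNA-seq read counts per Ensembl gene, deposited by the authors as whole numbers, were used as they stand for 8 libraries. Per the submitters' processing notes, which give no roles, the tools were STAR 2.5.4a, cutadapt 1.16, DESeq2 and featureCounts 1.6.3 and the build GRCm38. For the strand setting and shared reads nothing is given in the sources used here. Names, positions and exon lengths came from GENCODE M21 (GRCm38), which matched 53706 of 53801 IDs, and promoter sequences from RefSeq.

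The injury effect was fitted with edgeR 4.0.16 (R 4.3.3; TMM, filterByExpr minimum count 10, robust quasi-likelihood F test, Benjamini-Hochberg over all genes tested, threshold 0.05) over all 8 libraries. Each pool was a block, because its left and right ganglia come from the same mice. The deviations of left and right correlated by 0.249, -0.0618 and 0.356 at days 1, 3 and 7. The SE is the log2 fold change over the root of F. The injury effect had 3 residual degrees of freedom, the time term 2, and the contralateral comparison, where left and right without injury were added up as 1 sample, 2. With 1 pool a day, pool and day cannot be told apart, and p-values reflect only how these pools vary. CPM used TMM-scaled totals, and side ratios a prior count of 2. No 2 libraries agreed within sampling noise (lowest chi-square per degree of freedom 6.05). Alternatives were RLE factors, DESeq2 1.42.0, no filter, left-out pools, other blocks and other controls, a prior count of 0.5 and unscaled CPM. Ratios of reads have exact conditional binomial intervals (95%). The fits were also run on simulated counts. Those had the same spread for every gene and no differences between pools beyond the planted ones, so they do not show how the fits behave on these libraries.

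All 9 genes are named. Lists name called genes by lowest p, up to 4 (receptors: all called); Cckar, Adcyap1r1, Crhr1, Crhr2, Galr2, Galr3, Pcsk1, Pcsk2, Cpe, Pam, Ide, Calca, Tac1, Grp, Adm2 and single markers were named after their values were seen. Likeness names come from the 3 highest correlations per gene. The members and lists were chosen with earlier results of these data known.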

Additional observations from a re-analysis of the deposited data

How the results depend on the processing

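The direction of all 7 tested genes in the injury effect was the same under every alternative run; their calls were not. The side ratios of all 9 genes moved by less than 1 SD between pools with unscaled CPM or a prior count of 0.5. Of the 7 (6 higher, 1 lower), the calls became 3 and 0 with no filter on low counts, 2 and 0 with no replicate block, 6 and 0 with operated pools only, 1 and 0 with the libraries labelled no injury as controls, 0 and 0 when a left-right term, estimated from the 1 pool without injury, was added, and from 3 to 5 and from 0 to 1 when a pool was left out. DESeq2 and RLE factors each lost Npy (adjusted p = 0.478 and 0.0502). Over all genes (1644 higher, 1302 lower) the counts were 763 and 449 with operated pools only, 703 and 442 with the libraries labelled no injury as controls, 6 and 0 with the left-right term, and 475 to 2382 and 156 to 2287 with a pool left out. The time term called 9 and 0 genes with RLE factors, 34 and 10 with DESeq2 (1 of the 7, Gal) and 29 and 3 with no filter (2 of the 7, Gal and Nts, higher). With a pool left out it called 12 to 644 and 82 to 570 genes, 1 to 2 of the 7 higher and 0 to 1 lower, on 1 residual degree of freedom, and the value of Ucn2 ran from -0.94 to 1.00. The contralateral comparison (21 higher, 26 lower) called 85 and 73 with DESeq2, 276 and 422 with no filter (1 of the peptide genes, Crh, higher), 188 and 184 with left and right as separate samples, and 13 to 447 and 3 to 507 with a pool left out, with 0 to 3 peptide genes higher. The causes were not tested. Depth limits Vip, Cck, Ucn2 and the base level of Crh.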
